A study of Homo sapiens with 12 samples.

Results

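Catecholamine synthesis and transport genes are described here across 12 libraries of KELLY cells. The 9 genes TH, DDC, DBH, PNMT, GCH1, SLC18A1, SLC18A2, SLC6A2 and MAOA were taken by symbol from a table of 55771 genes. The list is the textbook pathway and its rule uses no measured value, but it was chosen with earlier results of these data known. All 9 were in the table, and 8 passed the filter on low values (a normalized count of at least 10 in at least 4 libraries), which 20454 genes passed in all. PNMT did not pass it.

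KELLY is an established human neuroblastoma line with amplified MYCN, so every value comes from 1 tumour line. Cells were plated in 10% serum for 24 h, moved to 4% serum, transfected with lipoplexes of a morpholino oligonucleotide on a DNA leash at 50 nM and lysed after 48 h. The 3 groups differed in the oligonucleotide: a control oligonucleotide, BPS1 or BPS2, with 4 libraries each, all transfected at the same dose. The stated aim was to find the transcripts that change when NEAT1_2, the long isoform of the NEAT1 RNA, and the paraspeckles built on it are raised.

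Catecholamines are made in sympathetic neurons and adrenal chromaffin cells from tyrosine. Tyrosine hydroxylase (TH) makes L-DOPA with tetrahydrobiopterin as cofactor, DOPA decarboxylase (DDC) turns it into dopamine, dopamine beta-hydroxylase (DBH) makes noradrenaline inside the vesicle, and PNMT methylates noradrenaline to adrenaline. GCH1 starts the synthesis of tetrahydrobiopterin, the vesicular monoamine transporters VMAT1 (SLC18A1) and VMAT2 (SLC18A2) load the amines into vesicles, the noradrenaline transporter (SLC6A2) takes released noradrenaline back up, and monoamine oxidase A (MAOA) breaks amines down. Neuroblastoma arises from the sympathetic lineage, and its cells commonly carry this pathway.

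Upstream sequences are shown to let a reader see how the starts of genes that fell in BPS1 differ in motifs. Sequences for 4 of the 9 genes, DBH, DDC, MAOA and SLC18A2, matched the RefSeq table of promoters (GRCh38.p14), and the 250 bases before each annotated start are printed. All 4 fell in BPS1, so the windows allow no comparison with members that rose or did not pass. Capitals mark, on either strand, the cAMP response element core TGACG, the full element TGACGTCA, the homeodomain core TAAT and the GC box GGGCGG, so that ATTA is a TAAT and CCGCCC a GC box read on the opposite strand. The 5 windows lie on GRCh38.p14 at chr9:133636113-133636362 on the plus strand for DBH, at chr7:50561072-50561321 and chr7:50565406-50565655 on the minus strand for the DDC starts 1 and 2, at chrX:43656049-43656298 on the plus strand for MAOA and at chr10:117240864-117241113 on the plus strand for SLC18A2.
DBH: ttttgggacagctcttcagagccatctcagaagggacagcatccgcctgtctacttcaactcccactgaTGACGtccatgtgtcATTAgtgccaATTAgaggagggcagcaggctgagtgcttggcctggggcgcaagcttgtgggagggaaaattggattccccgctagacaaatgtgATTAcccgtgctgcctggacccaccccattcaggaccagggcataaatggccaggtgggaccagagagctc
DDC start 1: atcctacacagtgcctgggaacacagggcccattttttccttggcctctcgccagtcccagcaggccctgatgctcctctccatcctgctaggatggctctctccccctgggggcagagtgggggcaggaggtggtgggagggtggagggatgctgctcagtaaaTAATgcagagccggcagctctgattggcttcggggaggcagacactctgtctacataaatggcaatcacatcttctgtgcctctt
DDC start 2: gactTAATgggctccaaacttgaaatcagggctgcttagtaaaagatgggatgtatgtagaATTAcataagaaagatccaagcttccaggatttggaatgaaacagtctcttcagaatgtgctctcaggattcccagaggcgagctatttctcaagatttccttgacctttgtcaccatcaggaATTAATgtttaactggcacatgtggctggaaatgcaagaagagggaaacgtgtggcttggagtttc
MAOA: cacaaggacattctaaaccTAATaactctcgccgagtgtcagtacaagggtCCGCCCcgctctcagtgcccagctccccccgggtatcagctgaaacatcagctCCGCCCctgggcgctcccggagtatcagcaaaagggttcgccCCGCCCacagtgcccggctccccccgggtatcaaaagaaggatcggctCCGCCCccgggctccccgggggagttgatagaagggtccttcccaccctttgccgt
SLC18A2: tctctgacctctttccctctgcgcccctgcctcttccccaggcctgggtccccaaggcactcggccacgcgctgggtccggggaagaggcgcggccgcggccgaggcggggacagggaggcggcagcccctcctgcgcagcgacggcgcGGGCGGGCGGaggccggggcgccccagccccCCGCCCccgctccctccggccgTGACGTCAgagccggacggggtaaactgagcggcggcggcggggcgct

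The windows differed in these letters. The DBH window held 1 TGACG, at -181 to -177 from the start, and 3 TAAT cores. The DDC windows held 1 and 4 TAAT cores and none of the other motifs. The MAOA window held 4 GC boxes and 1 TAAT. The SLC18A2 window held a full TGACGTCA at -48 to -41, which contains both of its TGACG matches, and 3 GC boxes, of which 2 overlap. Among 35116 promoter windows of 250 bases, 21.2% held TGACG, 1.65% TGACGTCA, 47.4% TAAT and 42.6% GGGCGG. A match is a description of the letters, not a binding site or a cause.

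The libraries held an estimated 29.1 to 31.8 M counted reads, with 32064 to 34025 genes above 0. The NEAT1 row, which sums the short and the long isoform, held 6879 ± 264 (SD, n = 4) normalized counts with the control oligonucleotide, 2024 ± 420.4 with BPS1 and 4262 ± 412 with BPS2. It fell with either oligonucleotide, by -1.79 (limma, adjusted p = 6.00e-06) and -0.69 (adjusted p = 0.0239) on the log2 scale. At gene level this row cannot show whether NEAT1_2 rose. BPS1 replicate 4 and control replicate 1 stood apart. The SD over genes of their deviation from each gene's median over all libraries was 0.594 and 0.471 on the log2 scale. It was 0.377 to 0.425 in the other 10 libraries. That median spans the 3 groups, so the deviation also holds differences between groups. The Spearman correlation of that deviation with transcript GC content over all genes was 0.339 in BPS1 replicate 4 and 0.182 in control replicate 1, against -0.216 to 0.184 in the others. Of those others, BPS2 replicates 2, 3 and 4 had positive values (0.138, 0.184 and 0.115) and all the rest negative ones. The GC trend was thus not spread evenly over the groups. Several results resting on these libraries are given with and without them. Defining Schwann cell markers were near 0 (SOX10 and S100B averaged under 10), and the summed fibroblast list ranged from 1122 to 1339 in control, 1171 to 1780.0 in BPS1 and 1331 to 1807 in BPS2, where 1 of its 6 genes, COL1A1, rose. Of 7 mesenchymal markers 2 rose in BPS1 (FN1 and SNAI2) and 1 fell (CD44). Their summed level was 3992 to 4227 in control, 4215 to 5148 in BPS1 and 4288 to 4683 in BPS2. With BPS1 replicate 4 and control replicate 1 left out, SNAI2 and YAP1 rose and CD44 fell in BPS1, and VIM and YAP1 rose in BPS2. Of the fibroblast list PDGFRA then fell in BPS1 and COL1A1 rose in BPS2. In that setting 13.6% of all genes were called in BPS1, and 9.34% in BPS2. Over all genes 8.60% were called in BPS1 and 1.21% in BPS2. The 6 noradrenergic markers, all detected, summed to 114887 to 130908 in control, 96832 to 118341 in BPS1 and 113283 to 120364 in BPS2. The part of these shifts in the results was not tested, and in bulk RNA fewer cells of a type cannot be told apart from less RNA per cell.

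Per length, the pathway of KELLY cells was led by DBH, with PNMT, its last enzyme, lowest. In control libraries DBH reached 8149 ± 373 (SD, n = 4) normalized counts per kilobase of transcript, followed by DDC at 5118 ± 680.2, TH at 2365 ± 75.4, MAOA at 2325 ± 189 and SLC6A2 at 1130.2 ± 44.5. GCH1 stood at 243 ± 92.7 per kilobase, SLC18A1 at 172 ± 9.25, SLC18A2 at 101 ± 13.0 and PNMT at 6.78 ± 1.23. Neighbours in this order did not overlap between libraries, except TH with MAOA and GCH1 with SLC18A1. The vesicular transporter usual in sympathetic neurons, VMAT2, was thus the lower of the pair: SLC18A1 per kilobase was 1.70 times SLC18A2. The other monoamine oxidase, MAOB, stood at 7.28 ± 0.994 per kilobase in control, so MAOA was nearly all of the measured monoamine oxidase RNA. In BPS1 the order of the means changed at 1 place. There MAOA (1241 ± 161 per kilobase) and SLC6A2 (1307 ± 73.2 per kilobase) overlapped, although MAOA lay above SLC6A2 by 2.06 times in control. Overlaps between libraries changed at other places too. In BPS1 the lowest DDC library (2408 per kilobase) lay below the highest TH library (2494). All TH libraries (1653 or more) lay above all MAOA libraries (1449 or less).

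**Figure D1:**
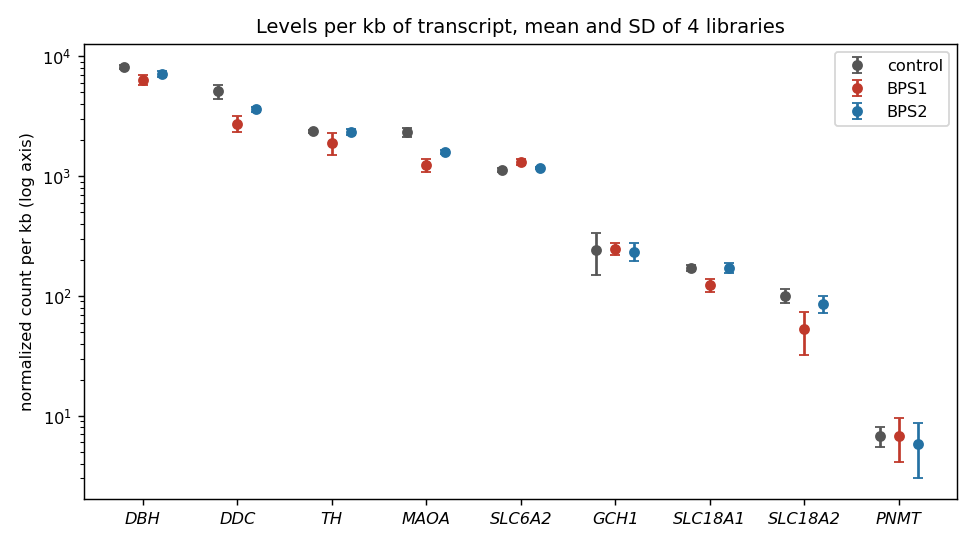
Mean normalized count per kilobase of transcript (log axis) of the 9 genes in control (grey), BPS1 (red) and BPS2 (blue), with the SD of 4 libraries as bars. DBH is highest at 8149 per kilobase in control and PNMT lowest at 6.78, and MAOA meets SLC6A2 in BPS1.

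With BPS1, 5 of the 8 tested genes fell and 1 rose. DDC, MAOA and SLC18A2 were 46.4%, 46.6% and 47.5% below control, SLC18A1 27.8% below and DBH 21.8% below, while SLC6A2 rose to 1.16 times control. TH and GCH1 did not pass the test. The 6 calls among 8 genes compare with 8.60% of all 20454 genes called in that comparison (4.32% lower and 4.29% higher). Among the 10157 genes with a mean of at least 300, a level all 8 reached and which was chosen after the values were seen, 11.2% were called with BPS1, 1.46% with BPS2 and 5.25% between the oligonucleotides. With BPS2, 2 of the 8 fell, DDC and MAOA, and none rose, where 1.21% of all genes were called and 0.386% called lower. The median log2 fold change of the 8 genes was -0.42 in BPS1 and -0.11 in BPS2, and that of all tested genes was 0.00 in both. Both comparisons use the same 4 control libraries, so their values are set side by side and not counted as 2 separate observations.

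**Figure D2:**
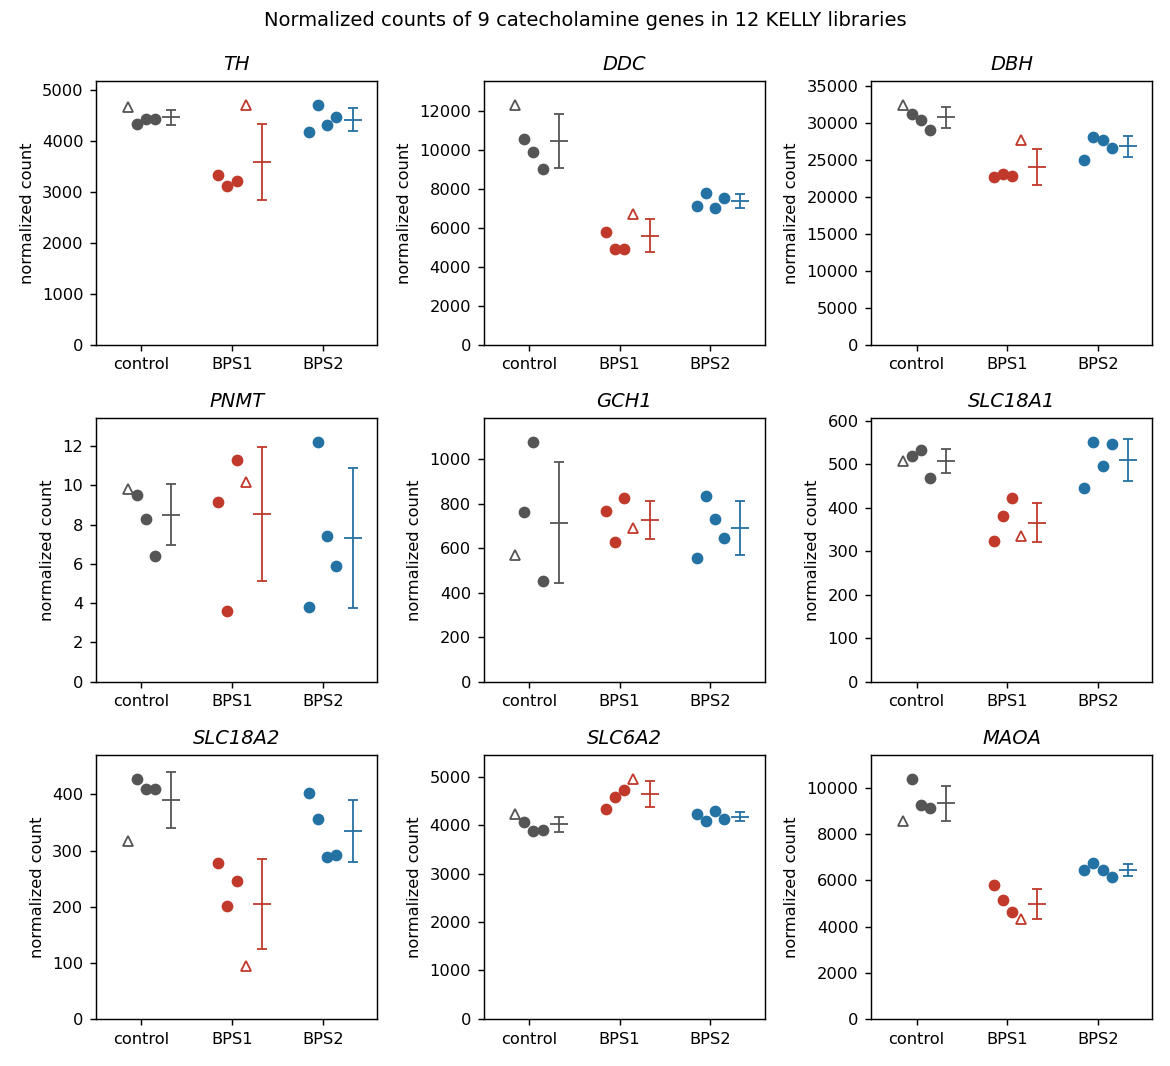
Normalized count of each gene in every library by group, from 0 on each vertical axis; bars give the mean and SD of 4 libraries, and open triangles mark control replicate 1 and BPS1 replicate 4. DDC and MAOA in control lie above every BPS1 and BPS2 library, SLC6A2 in BPS1 lies above control, and TH in BPS1 replicate 4 lies at the control level.

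Among the synthesis enzymes, DDC changed most. Its normalized counts in control replicates 1 to 4 were 12314, 10549.8, 9873 and 9049. In BPS1 they were 5814, 4938, 4915 and 6713, and in BPS2 7107, 7769, 7029.5 and 7549. Every treated library lay below every control library, and every BPS1 library lay below every BPS2 library. The means were 10447 ± 1388 (SD, n = 4), 5595 ± 855 and 7364 ± 354, so BPS1 was 46.4% and BPS2 29.5% below control. The log2 fold change was -0.90 ± 0.11 (SE; limma, adjusted p = 3.01e-04) in BPS1 and -0.50 ± 0.11 (adjusted p = 0.0498) in BPS2. The BPS2 call lay at the threshold: it was lost in 10 of 12 fits that each left out 1 library, where it held without control replicate 4 or BPS1 replicate 4, and its log2 fold change ranged from -0.56 to -0.41 with an adjusted p of 0.0105 to 0.163. DDC lies on chromosome 7 (GRCh38, 50458436 to 50565457, minus strand) with 14 annotated transcripts that the row sums. FIGNL1, which overlaps it on the same strand, had a log2 fold change of -0.10 in BPS1 (adjusted p = 0.729).

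DBH, the enzyme that makes noradrenaline, fell less, from the highest level in the pathway. Control libraries held 32417, 31189, 30372 and 29067 normalized counts. BPS1 libraries held 22611, 23041, 22874 and 27637, and BPS2 libraries 24921, 28111, 27748 and 26591. All 8 treated libraries lay below all controls, and BPS1 replicate 4 stood above the other 3 of its group, within the BPS2 values. From 30761 ± 1408 (SD, n = 4) in control the mean was 21.8% lower in BPS1, at 24041 ± 2404, and the log2 fold change was -0.36 ± 0.07 (limma, adjusted p = 0.00793). Without replicate 4 the BPS1 mean was 22842 ± 217 (n = 3). The BPS1 call held in each of the 12 fits that left out 1 library (adjusted p up to 0.0295). In BPS2 the mean was 26843 ± 1436 and the log2 fold change -0.20 ± 0.07 (95% interval -0.35 to -0.04), which did not pass (adjusted p = 0.285) although the groups did not overlap. Such separation was seen for 3 of the 8 genes in BPS2 against control (DDC, DBH and MAOA, all lower), beside 9.65% of all genes (4.23% lower), and for 6 of 8 in BPS1 against control, beside 14.3%. In BPS2 DBH passed in none of the 12 fits that left out 1 library (limma, adjusted p from 0.0506 to 0.492). With BPS1 replicate 4 and control replicate 1 left out together, its BPS2 fold change was -0.17 and passed (adjusted p = 0.0283). In that setting 9.34% of all genes were called.

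An antisense transcript, DBH-AS1, overlaps DBH on the opposite strand (chromosome 9, 133654586 to 133657313 within DBH at 133635348 to 133659344). It was looked at after the values were seen. Its normalized counts were 989.6 ± 40.2 (SD, n = 4) in control, 690.4 ± 24.1 in BPS1 and 749 ± 26.7 in BPS2. It fell in both, by a log2 fold change of -0.52 ± 0.07 (limma, adjusted p = 4.98e-04) and -0.40 ± 0.07 (adjusted p = 0.0108). The kit marks strand, but whether the counting used it is not given in the sources used here, so reads of DBH and DBH-AS1 may not be fully told apart.

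TH, the rate-limiting enzyme, turned on 1 library. Control libraries held 4667, 4329, 4439 and 4434 normalized counts. BPS1 libraries held 3327, 3123, 3216 and 4712, and BPS2 libraries 4185, 4711, 4314 and 4478. BPS1 replicates 1 to 3 lay below every other library, while replicate 4 was the highest of all 12. With all 4, BPS1 averaged 3594 ± 749 against 4467 ± 142 (SD, n = 4) in control, a log2 fold change of -0.33 ± 0.11 that did not pass (limma, adjusted p = 0.0829). Without replicate 4 the BPS1 mean was 3222 ± 103 (n = 3) and the log2 fold change -0.47 (adjusted p = 2.66e-04). In BPS2 the mean was 4422 ± 227, and the log2 fold change of -0.02 had a 95% interval of -0.25 to 0.22. TH had the highest GC content of the 8 tested genes, 65.7% in its reference transcript.

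GCH1 and PNMT showed no change that these libraries could detect. GCH1 held 569, 764, 1078 and 454 normalized counts in control, 769, 628, 826 and 691 in BPS1 and 554, 835, 730.1 and 645 in BPS2. Control replicates spread over the whole range of the treated libraries. The log2 fold change was 0.09 (95% interval -0.38 to 0.57) in BPS1 and 0.01 (-0.47 to 0.48) in BPS2, so changes of these sizes remain possible. PNMT held 9.81, 9.49, 8.30 and 6.39 in control, 9.13, 3.63, 11.3 and 10.2 in BPS1 and 3.83, 12.2, 7.41 and 5.90 in BPS2. Those are values of about 4 to 12 reads a library, and all 3 groups overlapped. In the fit without a filter its log2 fold change was -0.07 in BPS1 and -0.27 in BPS2 (limma, adjusted p = 1 and 0.871).

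The vesicular transporters fell in BPS1. SLC18A1 (VMAT1, chromosome 8, GRCh38, 20144855 to 20183206) held 506, 519.6, 533 and 469 normalized counts in control. It held 324, 381, 422 and 336 in BPS1 and 446, 551, 496 and 545 in BPS2. All BPS1 libraries lay below all other libraries, and BPS2 spanned the control values. The mean was 366 ± 44.8 in BPS1 against 507 ± 27.3 (SD, n = 4) in control, a log2 fold change of -0.48 ± 0.10 (limma, adjusted p = 0.0133). In BPS2 it was 509.6 ± 49.1, with a log2 fold change of 0.00 and a 95% interval of -0.22 to 0.23.

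SLC18A2 (VMAT2) fell with a wide spread between libraries. Control libraries held 316, 427, 409 and 409.6 normalized counts. BPS1 libraries held 278, 201, 246 and 94.0, and BPS2 libraries 402, 356, 288 and 292. BPS1 lay below control and below BPS2 in every library, and its replicate 4 was lowest by far. The value in that library came from 86 reads (exact Poisson 95% interval 68.8 to 106.2, counting error only), against 214 to 294 reads in the other 3. The mean fell by 47.5%, from 390.5 ± 50.1 (SD, n = 4) to 205 ± 80.4, with a log2 fold change of -1.03 ± 0.27 (limma, adjusted p = 0.0328). Without BPS1 replicate 4 it was -0.69 (adjusted p = 0.0128), a smaller fall than those of DDC (-0.995) and MAOA (-0.846) in the same fit. The call was lost without control replicate 2, 3 or 4 or BPS1 replicate 2 (adjusted p up to 0.0861). In BPS2 the mean was 335 ± 54.8 and the log2 fold change -0.23 (adjusted p = 0.819).

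SLC6A2, the noradrenaline transporter of the plasma membrane, was the 1 gene that rose. It held 4219.8, 4054, 3886 and 3893 normalized counts in control, 4323, 4581, 4719 and 4944 in BPS1 and 4218, 4081, 4281 and 4121 in BPS2. All 4 BPS1 libraries lay above all others, by a small margin. The mean was 4642 ± 260.0 in BPS1 against 4013 ± 158 (SD, n = 4) in control, a log2 fold change of 0.21 ± 0.06 (limma, adjusted p = 0.0475). That call was lost in 9 of 12 fits that left out 1 library (adjusted p up to 0.128, without control replicate 3). In BPS2 the mean was 4175 ± 90.8 and the log2 fold change 0.06 (adjusted p = 0.791).

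MAOA, which oxidises noradrenaline and serotonin at the outer mitochondrial membrane, fell in both. Control libraries held 8556, 10373, 9264 and 9146 normalized counts. BPS1 libraries held 5818, 5138, 4649 and 4332, and BPS2 libraries 6434, 6747, 6447 and 6158. The 3 groups did not overlap, with BPS1 lowest and BPS2 between. The mean fell by 46.6% in BPS1, from 9335 ± 758 (SD, n = 4) to 4984 ± 647, and by 30.9% in BPS2, to 6447 ± 241. The log2 fold change was -0.91 ± 0.09 (limma, adjusted p = 5.71e-05) and -0.53 ± 0.09 (adjusted p = 0.0108). Both calls held in each of the 12 fits that left out 1 library. MAOB, its paralogue, averaged 18.7 ± 2.55 in control and 30.8 ± 14.3 in BPS1 and did not pass (log2 fold change 0.60, adjusted p = 0.299).

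**Figure D3:**
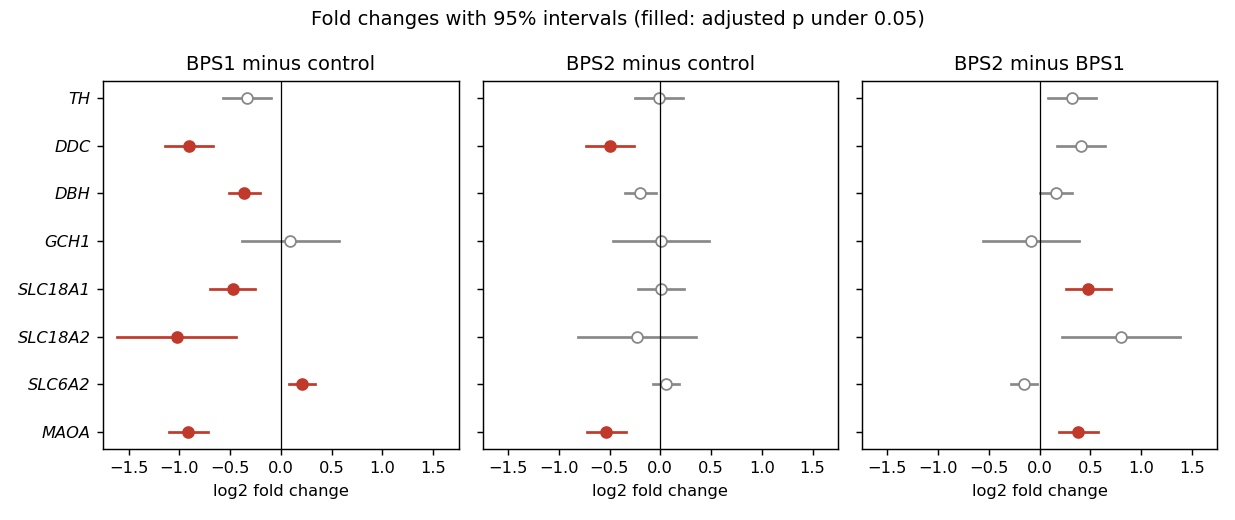
Log2 fold change of the 8 tested genes with its 95% interval from the limma fit, for BPS1 minus control, BPS2 minus control and BPS2 minus BPS1; filled points have an adjusted p under 0.05. DDC and MAOA are called against control in both, and SLC18A1 and MAOA lie higher in BPS2 than in BPS1.

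The direct comparison of the oligonucleotides asked where they differed. Of the 8 genes, 2 were higher in BPS2 than in BPS1 and none lower, beside 3.93% of all genes called (2.30% higher). SLC18A1 was higher by a log2 difference of 0.48 ± 0.10 (SE; limma, adjusted p = 0.0208), and MAOA by 0.38 ± 0.09 (adjusted p = 0.0310). The SLC18A1 call was lost in 4 and the MAOA call in 6 of the 12 fits that left out 1 library (adjusted p up to 0.0749 and 0.101). DDC (0.41, 95% interval 0.17 to 0.65, adjusted p = 0.0611), SLC18A2 (0.80, adjusted p = 0.133) and TH (0.32, 0.08 to 0.56, adjusted p = 0.146) did not pass. The BPS1 and BPS2 libraries did not overlap for 5 of the 8 genes, 4 of them higher in BPS2 (DDC, SLC18A1, SLC18A2 and MAOA) and SLC6A2 lower, beside 11.9% of all genes (6.08% higher and 5.80% lower). This comparison depended on BPS1 replicate 4: without it 5 genes were called, and without it and control replicate 1 there were 6 (DBH, DDC, MAOA, SLC18A1, SLC18A2 and TH, all higher in BPS2), where 17.1% of all genes were called. With the same pair left out, 6 genes fell and 1 rose in BPS1 against control (13.6% of all genes called), with TH added, and 3 fell in BPS2 (9.34%). The control and BPS1 libraries then left all had a negative correlation of deviation with GC content, and BPS2 replicates 2, 3 and 4 a positive one. With a GC trend removed from all 12 libraries, 3 genes were called higher in BPS2 than in BPS1 (MAOA, SLC18A1 and TH). There 991 of 19796 genes were called. The part of GC content in these counts was not tested.

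In both libraries that stood apart, the 3 members of highest GC content lay above and the 3 of lowest GC content below the rest of their group. BPS1 replicate 4 lay above the mean of replicates 1 to 3 for TH by a log2 difference of 0.55 and for DBH (60.7% GC) by 0.27. It lay below for SLC18A2 (42.3% GC) by -1.34 and for MAOA (43.2% GC) by -0.26. Control replicate 1 against its own group gave 0.08 for TH, 0.10 for DBH, -0.39 for SLC18A2 and -0.16 for MAOA. DDC did not follow this order: at 49.9% GC it lay above its group by 0.37 in BPS1 replicate 4 and by 0.33 in control replicate 1, the highest of the 8 in the latter. Over the 8 genes the Spearman correlation of deviation with GC was 0.762 for BPS1 replicate 4 and 0.690 for control replicate 1, as a description. With a GC trend removed from every library, TH passed in BPS1 (log2 fold change -0.44, limma, adjusted p = 4.96e-04) and DBH in BPS2 (-0.24, adjusted p = 0.0207). A positive correlation of deviation with GC over all genes was not particular to these libraries. BPS2 replicates 2, 3 and 4 had it too (0.138, 0.184 and 0.115). Whether GC content accounts for the spread or for differences between groups was not tested.

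**Figure D4:**
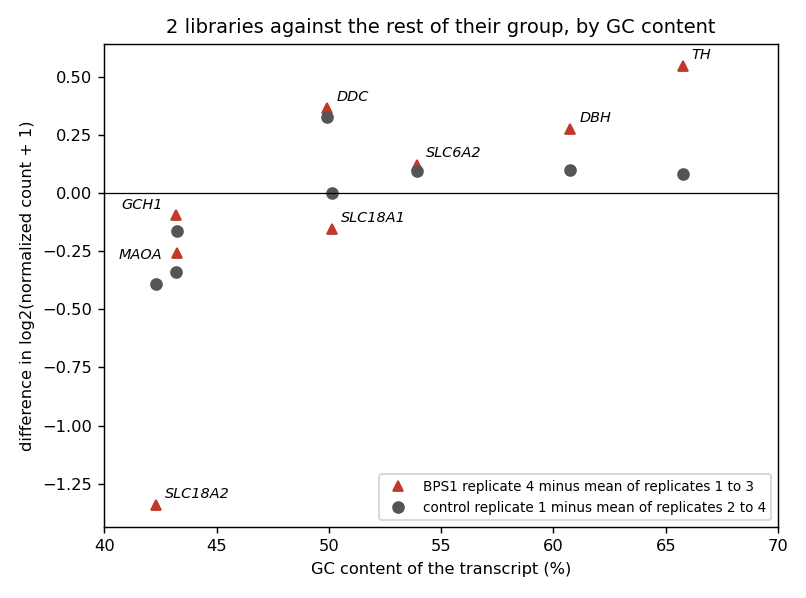
Difference in log2(normalized count + 1) between BPS1 replicate 4 and the mean of BPS1 replicates 1 to 3 (red triangles, labelled by gene) and between control replicate 1 and the mean of control replicates 2 to 4 (grey circles), against the GC content of the reference transcript in percent. TH at 65.7% GC lies 0.55 above its group in BPS1 replicate 4 and SLC18A2 at 42.3% GC lies at -1.34.

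The genes around the pathway were described by lists. The counts below stand beside 8.60% of all genes called in BPS1 and 1.21% in BPS2. Without BPS1 replicate 4 and control replicate 1 these shares were 13.6% and 9.34%. None of the 7 tetrahydrobiopterin genes passed in either comparison with control (median log2 fold change -0.07 in BPS1 and -0.01 in BPS2). With BPS1 replicate 4 and control replicate 1 left out, 1 of them, PCBD1, fell in BPS1. Of 7 breakdown genes 2 fell in BPS1: the aldehyde dehydrogenase ALDH2 (log2 fold change -0.49, limma, adjusted p = 0.0445) and the aldose reductase AKR1B1 (-0.42, adjusted p = 0.0349). These calls were lost in 11 and 9 of the 12 fits that left out 1 library. Without BPS1 replicate 4 and control replicate 1, 2 fell in BPS1 and 1 rose in BPS2. With the GC trend removed, 1 fell in BPS1 (AKR1B1) and none passed in BPS2.

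The 9 dense core vesicle genes, which build the store that VMATs fill, split in direction. In BPS1 2 rose: the secretogranin SCG2 (log2 fold change 1.07, limma, adjusted p = 7.96e-05) and CYB561, the cytochrome that supplies DBH with electrons (0.35, adjusted p = 0.00571). There 2 fell: chromogranin A, CHGA (-0.50, adjusted p = 0.0112), and CADPS, which primes vesicles for release (-0.91, adjusted p = 0.00494). In BPS2 SCG2 (1.00, adjusted p = 9.55e-04) and CYB561 (0.30, adjusted p = 0.0493) rose and none fell. The CYB561 call in BPS2 was lost in 10 of the 12 fits that left out 1 library. Without BPS1 replicate 4 and control replicate 1 the counts were 2 up and 3 down in either comparison with control. In that setting 13.6% of all genes were called in BPS1 and 9.34% in BPS2. With the GC trend removed, 8 of the list were tested: 2 rose and 1 fell in BPS1, and 2 rose and none fell in BPS2.

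Of 13 transcription factors of noradrenergic cells 12 were tested, and they split too. In BPS1 4 fell, among them HAND2 (17292 ± 999 to 11702 ± 932 normalized counts, SD, n = 4; log2 fold change -0.56, limma, adjusted p = 2.08e-04), TFAP2B (-0.44, adjusted p = 5.00e-04) and ISL1 (-0.30, adjusted p = 0.0111). HAND2 is known to act on DBH. There 3 rose, among them TLX2 (0.53, adjusted p = 0.00315) and GATA2 (0.25, adjusted p = 0.0461), whose call was lost in 10 of the 12 fits that left out 1 library. In BPS2 ISL1 (-0.33, adjusted p = 0.0228) and TFAP2B (-0.40, adjusted p = 0.00396) fell and none rose, and the ISL1 call was lost in 6 of those fits (adjusted p up to 0.0913). HAND2 was higher in BPS2 than in BPS1, by 0.39 (adjusted p = 0.00465). With BPS1 replicate 4 and control replicate 1 left out, 4 rose and 4 fell in BPS1, and 5 rose and 3 fell in BPS2. Over all genes that setting called 13.6% in BPS1 and 9.34% in BPS2, against 8.60% and 1.21% with all libraries. With the GC trend removed instead, 4 rose and 4 fell in BPS1, and 1 rose and 3 fell in BPS2. There 2022 of 19796 genes were called in BPS1 and 340 in BPS2.

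Of 8 activity-induced and CREB-type factors, which belong to several families with different binding sites, 4 rose in BPS1 and none fell. These were FOS (log2 fold change 2.38, limma, adjusted p = 0.0163), EGR1 (1.27, adjusted p = 0.00256), NR4A1 (0.58, adjusted p = 0.0134) and JUN (0.43, adjusted p = 0.0142). In BPS2 EGR1 (1.21, adjusted p = 0.0141), JUN (0.64, adjusted p = 0.00561) and NR4A1 (0.60, adjusted p = 0.0399) rose, and FOS did not pass (2.42, adjusted p = 0.0513). With 1 library left out, the NR4A1 call in BPS2 was lost in 9 of 12 fits (adjusted p up to 0.135), that of EGR1 in BPS2 in 1 and that of FOS in BPS1 in 2. Without BPS1 replicate 4 and control replicate 1, 4 rose in BPS1 and 5 in BPS2, with CREM added. There 13.6% of all genes were called in BPS1 and 9.34% in BPS2. With the GC trend removed, 4 rose in BPS1 and 4 in BPS2 (EGR1, FOS, JUN and NR4A1), without CREM. The CREB-type members CREB1 (log2 fold change 0.08, adjusted p = 0.844), ATF1 (0.25, adjusted p = 0.111) and CREM (-0.02, adjusted p = 0.947) did not pass in BPS1. In BPS2 CREM did not pass against control (0.42, limma, adjusted p = 0.107). It was higher in BPS2 than in BPS1 (0.44, adjusted p = 0.0435), a call lost in 10 of the 12 fits that left out 1 library.

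Of 10 receptors for the amines 5 were tested, and 3 fell in BPS1, among them ADRA2A, the release-inhibiting alpha-2A receptor (441 ± 30.6 to 269 ± 33.4 normalized counts, SD, n = 4; log2 fold change -0.72, limma, adjusted p = 9.13e-04), and the dopamine receptor DRD2 (-0.38, adjusted p = 0.00308). In BPS2 ADRA2A fell (296 ± 17.8; -0.57, adjusted p = 0.0155), a call lost in 3 of the 12 fits that left out 1 library (adjusted p up to 0.0681). Without BPS1 replicate 4 and control replicate 1, 3 fell and 1 rose in BPS1, where 13.6% of all genes were called. The 1 that rose was the alpha-2C receptor ADRA2C (log2 fold change 0.45 and adjusted p = 0.0913 with all libraries). Among 8 tested genes of other amines and acetylcholine, SLC18A3, the vesicular acetylcholine transporter and relative of the VMATs, rose in BPS1 (0.54, adjusted p = 0.0382) and none passed in BPS2. The SLC18A3 call was lost in 6 of the 12 fits that left out 1 library (adjusted p up to 0.107), and without BPS1 replicate 4, with or without control replicate 1, it also rose in BPS2. With the GC trend removed, SLC18A3 rose in BPS1 and did not pass in BPS2. The serotonin and dopamine transporters SLC6A4 and SLC6A3 averaged 27.9 ± 8.92 and 37.1 ± 5.89 normalized counts in control, and neither passed in a comparison with control.

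**Figure D5:**
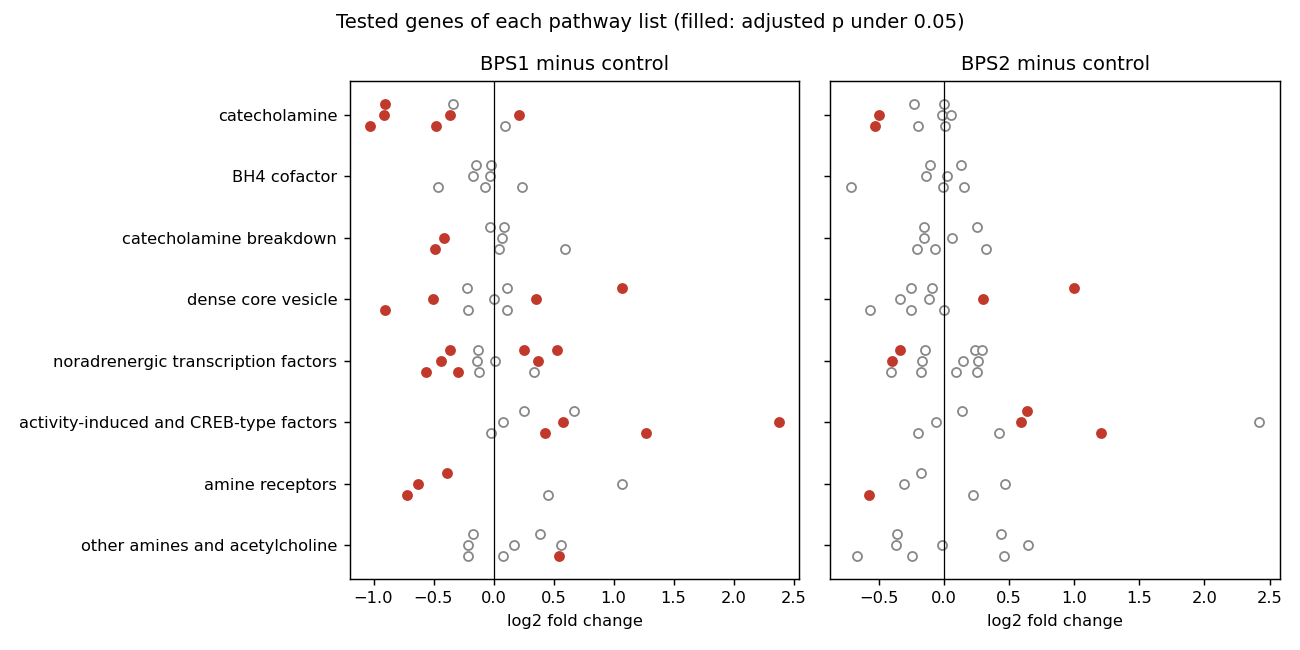
Log2 fold change of each tested gene by list, BPS1 minus control at left and BPS2 minus control at right; filled red points have an adjusted p under 0.05 and each point is 1 gene. The catecholamine genes lie mostly below 0 in BPS1, the tetrahydrobiopterin (BH4) genes hold no filled point, and the activity-induced factors reach 2.38.

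The genes most like each called member over the 12 libraries, among 13973 tested genes with a mean of at least 50, were found by Pearson correlation of log2(normalized count + 1). These share the groups and the libraries that stood apart, and are a description. DDC ran closest with EEF1A1 (r = 0.98), a translation elongation factor, then TIMMDC1 (0.97) and the neuronal intermediate filament gene INA (0.97). DBH ran closest with TCEA3 (0.98), BCAT2 (0.97) and TIMMDC1 (0.97). MAOA ran closest with RGS4 (0.98), a regulator of G protein signalling, RIMS3 (0.97) and MAT2A (0.96). SLC18A2 ran closest with MFSD1 (0.98), UGGT1 (0.96) and AL161891.1 (0.96), and SLC18A1 with the pseudogene BTF3L4P2 (0.96), C1orf198 (0.95) and PXN-AS1 (0.93). SLC6A2 ran closest with TMEM44-AS1 (0.97), MRPL1 (0.97) and FAHD2A (0.96). Within the pathway the highest r was that of DDC with DBH (0.94), followed by DDC with MAOA (0.86), and SLC6A2 ran opposite to SLC18A2 (-0.89) and MAOA (-0.88).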

How the data were processed

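RNA of 12 libraries was sequenced as stranded, ribosome-depleted total RNA in single reads of 100 bases. Per the submitters' processing notes, reads were checked with FastQC 0.11.7, quantified with Salmon 0.8.2 and normalized with DESeq2 (version not given in the sources used here) on GRCh38. The deposited unit is a signal, the normalized count of a gene in each library, so no count test was fitted. Whole reads could not be recovered for enough genes (67.8% to 71.1% of low values were whole within 0.001). Columns were matched to libraries by title. The BPS1 replicate 3 column is spelled BSP1.

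Normalized counts were tested as log2(value + 1) with limma 3.58.1 in R 4.3.3 (moderated, with a trend, all 3 groups in 1 fit), two-sided, with Benjamini-Hochberg adjustment over 20454 genes and a threshold of 0.05. A fold change on this scale understates low genes. Because the labels do not say whether each library had its own culture, the p-values reflect spread among libraries only, and that spread may be technical. Positions, lengths and GC content come from GENCODE 29 (GRCh38), which holds 53365 of the 55771 gene identifiers. For each gene the longest transcript tagged as an APPRIS principal isoform was used. Where none had that tag, the longest tagged basic was used, or else the longest of all. The genes and lists were chosen with earlier results of these data known. Named genes were the 9 members, NEAT1, the called or smallest-p genes of each list and the 3 genes most like each called member. Some list genes are counted but not reported here by name. Alternatives were other pseudocounts, filters, scalings, a GC trend correction, library weights, a replicate block and leaving out libraries. Code for these steps was tested on simulated data.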

Additional observations from a re-analysis of the deposited data

Results flagged for a closer look

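Of 30 groups of 4 libraries examined (the 9 genes and NEAT1 in 3 groups), 3 held a library farther from the others than Dixon's 95% limit for the gap over the range, where chance gives about 1 in 20 groups. TH in BPS1 replicate 4 was 4712 normalized counts, above a nearest value of 3327 (gap over range 0.871). DBH in BPS1 replicate 4 was 27637, above a nearest value of 23041 (0.914). SLC18A2 in control replicate 1 was 316, below a nearest value of 409 (0.838). Both libraries also had the widest SD, over all genes tested, of the deviation from each gene's median over all libraries.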

How the results depend on the processing

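The 6 calls among the catecholamine genes in BPS1 against control ranged from 4 to 7 over the fits that left out 1 library, and under the other settings stayed within 1.5 times. For BPS2 against control the 2 calls became 1 with a pseudocount of 0.5 or 5, no filter, robust variance estimates, a replicate block or the GC correction with a replicate block, and ranged from 1 to 2 with 1 library left out. For BPS2 against BPS1 the 2 calls became 1 with no filter or a replicate block, 4 with quantile scaling, 7 with library weights, 0 with only the compared groups and 6 without control replicate 1 and BPS1 replicate 4, and ranged from 0 to 5 with 1 library left out.

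Over all genes, the 1760 calls of BPS1 against control became 3382 with library weights, 1067 with a replicate block, 907 with only the compared groups and 2774 without that pair of libraries (1102 to 2372 with 1 left out). The 247 calls of BPS2 against control became 1296, 118 with the block, 131 with the GC correction and block, and 1910 without the pair (114 to 536). The 803 calls of BPS2 against BPS1 became 3626, 447 with the block and 3499 without the pair (477 to 1764). The cause was not tested. Same-numbered libraries deviated from their group means with correlations from -0.272 to 0.103. With 4 libraries per group, these values cannot decide whether the numbers pair the samples.

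Directions turned only for genes not called. GCH1 in BPS1 was -0.031 (log2) with library weights and -0.10 to 0.31 with 1 library left out. GCH1 in BPS2 was -0.0032 with quantile scaling, -0.11 with weights, -0.076 without the pair and -0.18 to 0.23 with 1 left out, and in BPS2 against BPS1 it was -0.18 to 0.016. SLC18A1 in BPS2 was -0.0015 with median-of-ratios scaling, -0.013 with quantile scaling and -0.035 to 0.066. TH in BPS2 was 0.012 with weights, 0.0057 without the pair and -0.046 to 0.011. PNMT rested on about 4 to 12 reads a library, and GCH1 had an SD of 273 on a mean of 716 in control.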

Other observations

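A further antisense transcript is AL391988.1, on the strand opposite to SLC18A2 (chromosome 10, GRCh38, 117267116 to 117268668). Others that overlap a member, DDC-AS1 in DDC and AL731557.1 at the start of SLC18A2, averaged 4.49 and 15.1 normalized counts over all libraries. AL391988.1 was looked at after the values were seen. Its normalized counts were 124 ± 14.0 (SD, n = 4) in control, 196 ± 29.4 in BPS1 and 135 ± 3.09 in BPS2. It rose in BPS1 (log2 fold change 0.65 ± 0.12, limma, adjusted p = 0.00581), where SLC18A2 fell, and was lower in BPS2 than in BPS1 (-0.52, adjusted p = 0.0334). PDZD8, whose end overlaps that of SLC18A2 on the opposite strand, had a log2 fold change of 0.30 in BPS1 (adjusted p = 0.635).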
